A study of Macaca mulatta with 16 samples.

Results

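Messenger RNA of 9 epithelial cell-cell junction genes was followed in the fetal rhesus macaque lung after intraamniotic lipopolysaccharide (LPS), an endotoxin from the outer membrane of gram-negative bacteria that was used here to inflame the amniotic cavity. The genes were CLDN1 (ENSMMUG00000001915), CLDN3 (ENSMMUG00000001143), CLDN4 (ENSMMUG00000044653), CLDN7 (ENSMMUG00000010551), CLDN18 (ENSMMUG00000009636), OCLN (ENSMMUG00000006216), TJP1 (ENSMMUG00000017878), CGN (ENSMMUG00000021259) and CDH1 (ENSMMUG00000011850). They were taken by symbol, as a set named with earlier results of these data known. Each symbol matched 1 Ensembl gene, and they are 9 of the 22515 genes in the count table. All 9 passed the filter on low counts that left 19192 genes for testing.

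The 16 fetuses formed 5 groups, with 1 library of left lung tissue from each fetus. The 4 preterm controls received no intervention and were delivered at 131 to 135 days of gestation. The 2 term controls, also untreated, were delivered at 156 and 157 days. The 4 animals of the LPS 16 h group received 1 mg of LPS into the amniotic fluid and were delivered 16 hours later, at 130 to 131 days. The 3 animals of the LPS 5 d group received the same dose and were delivered after 5 days, at 131 to 134 days. In the LPS + Beta-Ac 5 d group, 3 fetuses received 1 mg of intraamniotic LPS while the dam received 0.125 mg/kg of intramuscular betamethasone-acetate (Beta-Ac), a corticosteroid given before preterm birth, and were delivered after 5 days at 131 to 132 days. All LPS groups received a single exposure, no group of Beta-Ac alone was analysed here, and the labels give neither sex nor sequencing batch. The LPS was given in saline and no group received saline alone, so LPS and its injection cannot be told apart.

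Tight junctions close the space between epithelial cells near their apical surface. Claudins and occludin (OCLN) span the membrane there, the scaffold TJP1 (ZO-1) and cingulin (CGN) bind them to the cytoskeleton on the inside, and E-cadherin (CDH1) joins neighbouring cells in the adherens junction just below. Claudins differ in how tightly they seal: CLDN1, CLDN3, CLDN4 and CLDN18 are mainly sealing members. CLDN18 has a lung form that is abundant in alveolar epithelium, above all in alveolar type 1 cells, and CLDN3, CLDN4 and CLDN7 occur in alveolar type 2 and airway cells. Together these proteins form the barrier between the air spaces and the tissue, which has to hold once breathing starts.

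The deposited values were whole-number read counts per gene. Library totals ranged from 20169363 to 28348816 counts in the preterm controls, term controls, LPS 5 d and LPS + Beta-Ac animals, and from 30596371 to 48052891 in the LPS 16 h animals, so the deepest libraries all belonged to 1 group. Levels are given as CPM, the count in each 1000000 counts of a library whose total was adjusted with TMM, a trimmed mean of log ratios between libraries, and are compared between animals, not between genes, because transcript length was not taken into account. The members' raw counts ran from 52 (CLDN1) to 12148 (TJP1). A difference is a log2 fold change from limma fitted to all 16 animals, and a gene passed at a Benjamini-Hochberg adjusted p below 0.05 over the 19192 genes. With 2 to 4 animals a group, p-values rest on a spread shared between the groups. The 4 comparisons with preterm controls shared the same 4 control animals.

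**Figure D1:**
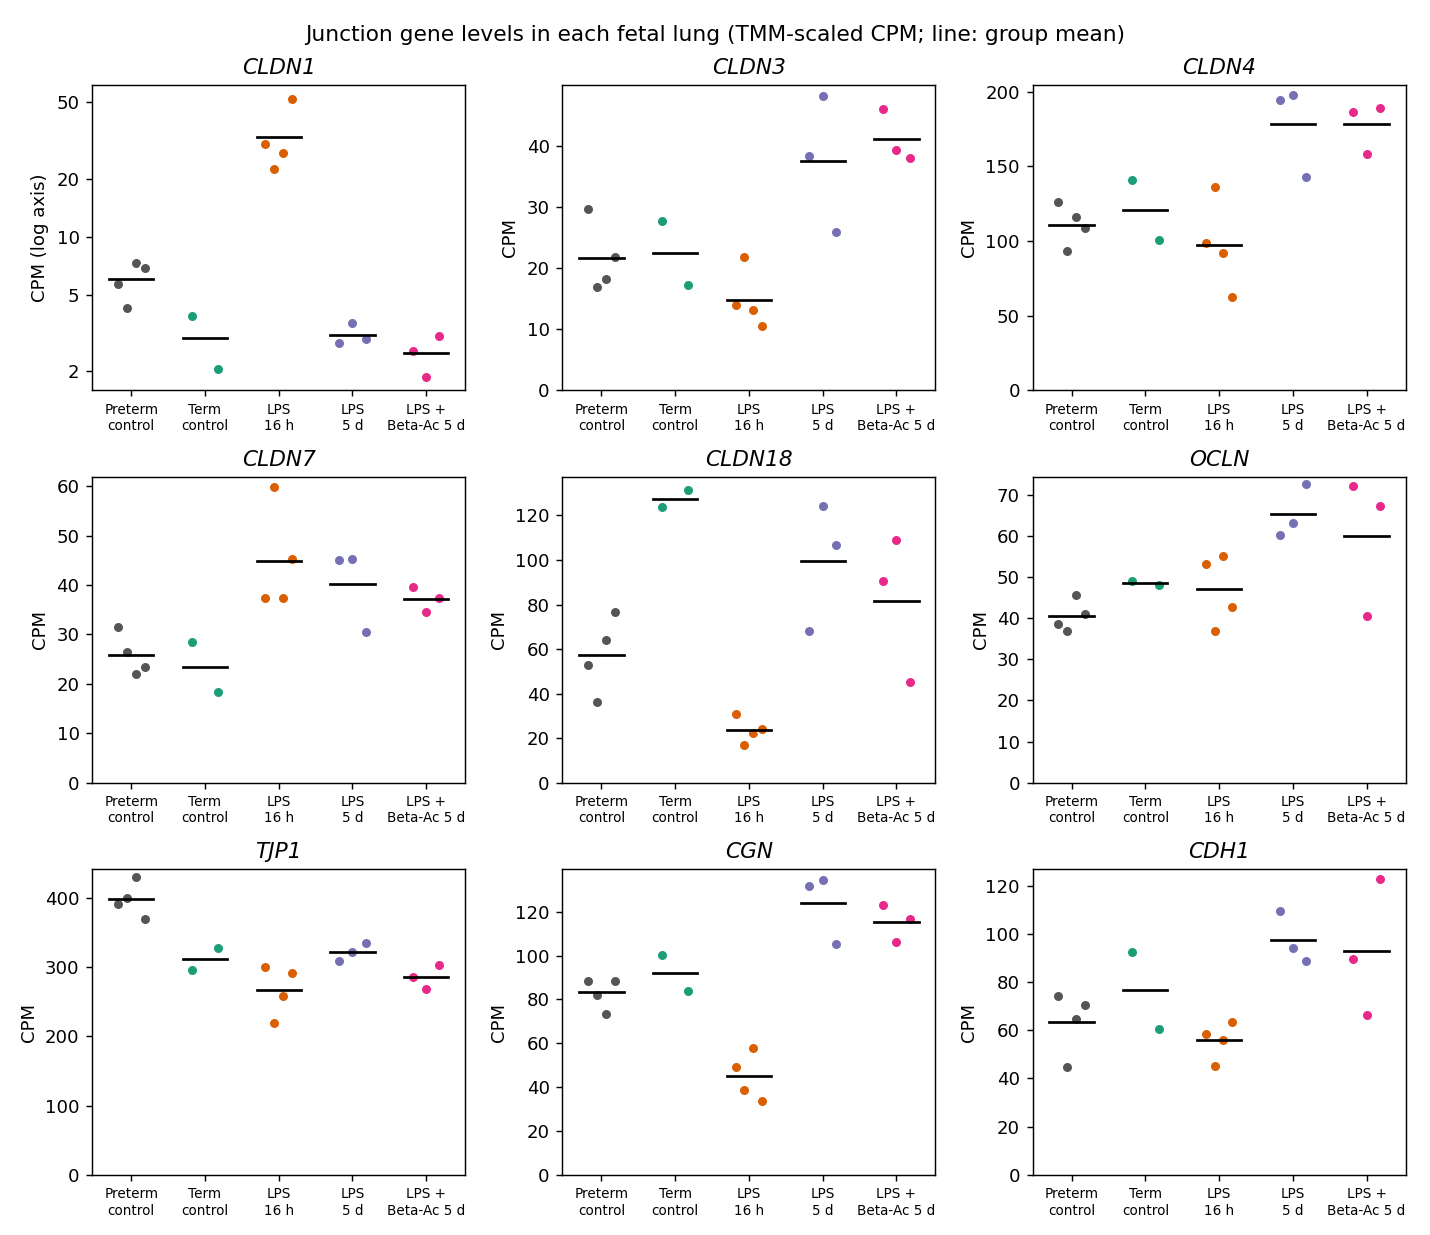
Each panel plots 1 junction gene, with the 5 groups on the horizontal axis and TMM-scaled CPM on the vertical axis (log scale for CLDN1, linear from 0 for the others). Points are animals and lines are group means. The 4 LPS 16 h animals lie at 22.5 to 51.8 CPM for CLDN1, above every other animal, and at 17.1 to 30.8 CPM for CLDN18, below every other animal.

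The first question was how the lungs differed from untreated controls early after LPS alone. At 16 hours after LPS, 2 of the 9 genes were higher than in preterm controls and 3 were lower. CLDN1 rose 5.24-fold and CLDN7 rose 1.72-fold, whereas CLDN18, CGN and TJP1 fell to 0.418, 0.530 and 0.668 of the control level. Over all genes tested, 18.7% were higher and 19.6% were lower in this comparison, so a change in either direction was common in these lungs. The median log2 difference of the 9 genes was -0.24, against -0.09 over all genes. In bulk tissue, fewer cells of a type cannot be told apart from less RNA per cell.

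CLDN1 measured 5.71, 4.25, 7.34 and 6.84 CPM in the preterm controls and 30.2, 22.5, 27.2 and 51.8 CPM in the LPS 16 h animals. The groups did not overlap, and the lowest exposed animal was above the highest control. The log2 difference was 2.39 ± 0.27 (SE, n = 4 and 4, adjusted p = 6.33e-06 by limma). Animal 038, with 51.8 CPM, was the highest of its group for CLDN1 and the lowest for CLDN3 and CLDN4.

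CLDN7 was 31.6, 26.5, 22.1 and 23.4 CPM in preterm controls and 37.4, 59.8, 37.3 and 45.2 CPM at 16 hours, again without overlap. Its log2 difference was 0.78 ± 0.19 (SE, adjusted p = 0.0042 by limma).

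CLDN18 moved the other way. Its level was 53.0, 36.3, 64.3 and 76.4 CPM in the preterm controls and 30.8, 17.1, 22.4 and 24.3 CPM at 16 hours, and no exposed animal reached the lowest control. It fell by 1.26 ± 0.29 on the log2 scale (SE, adjusted p = 0.00335 by limma). The cytoplasmic adaptor CGN measured 88.6, 82.1, 73.5 and 88.6 CPM in controls and 49.3, 38.7, 57.6 and 33.9 CPM in exposed animals, and it fell by 0.92 ± 0.15 (SE, adjusted p = 1.95e-04 by limma). TJP1 was 391, 400.1, 431 and 370.2 CPM in controls and 299.8, 219.8, 259 and 291 CPM at 16 hours. The TJP1 groups were apart, and the decrease was by 0.58 ± 0.10 on the log2 scale (SE, adjusted p = 3.32e-04 by limma).

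The other 4 genes did not pass at 16 hours, and their groups overlapped. CLDN3 was 21.6 ± 5.73 CPM (SD, n = 4) in preterm controls and 14.8 ± 4.84 CPM (SD, n = 4) after LPS, with a log2 difference of -0.56 (95% confidence interval -1.09 to -0.03, adjusted p = 0.0886 by limma). Animal 029 was the highest of its group for CLDN3, CLDN4 and CLDN7, and CLDN3 passed without it, at a log2 difference of -0.73 (adjusted p = 0.0214 by limma). CLDN3 also passed when libraries were scaled by their totals alone, at -0.76 (adjusted p = 0.0139 by limma). CLDN4, OCLN and CDH1 had log2 differences of -0.24, 0.20 and -0.17, with intervals from -0.65 to 0.18, from -0.16 to 0.56 and from -0.60 to 0.26. OCLN turned to -0.0042 under the same scaling, which moved the median of all genes by -0.20 in this comparison and the share of passing genes that were higher from 48.8% to 29.1%. The 5 genes that passed kept their call and direction in 15 of 15 alternatives that were fitted, among them the thinning of every library to the smallest total. With a 2-fold change also required, CLDN1 and CLDN18 were the 2 that passed.

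**Figure D2:**
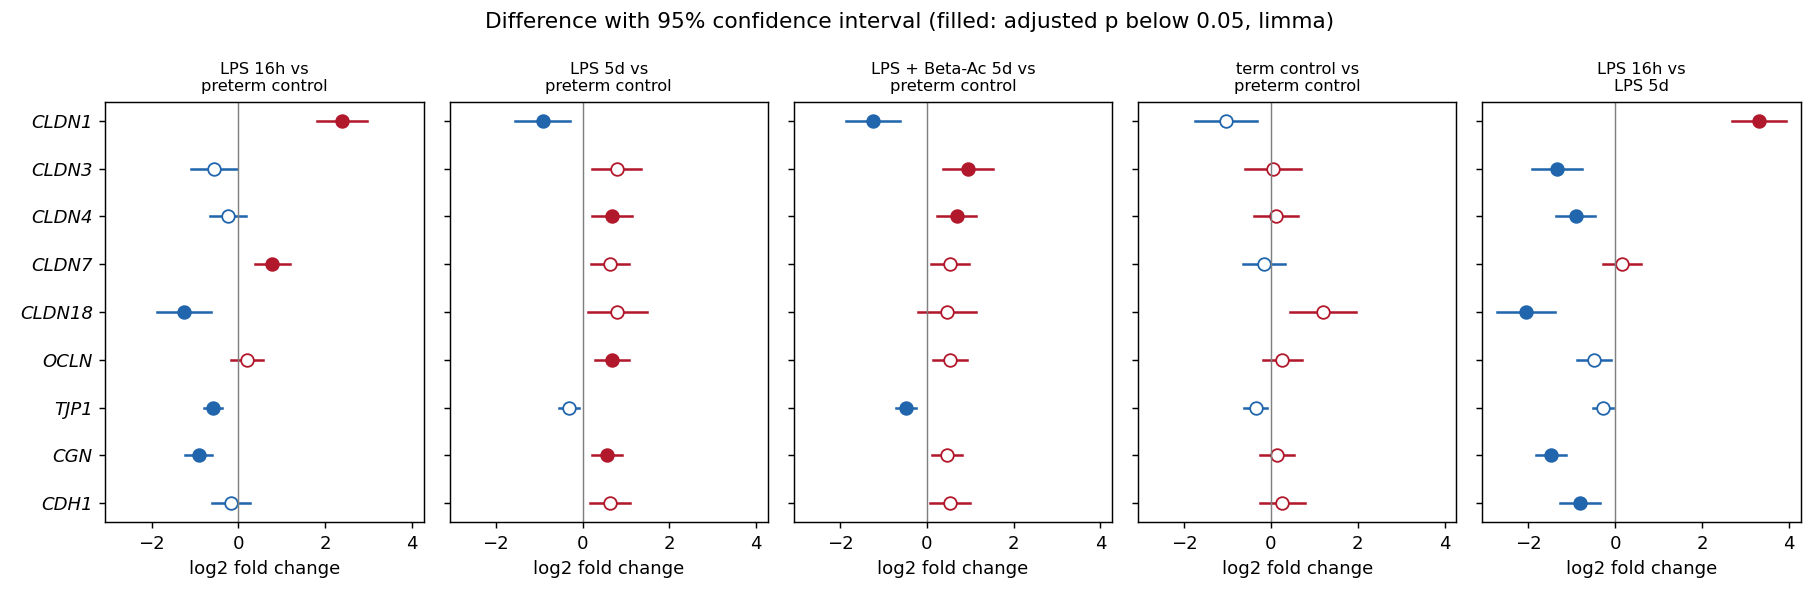
Each panel gives 1 comparison, with the 9 junction genes as rows and the log2 fold change on the horizontal axis. Bars are 95% confidence intervals, and filled points mark an adjusted p below 0.05 (limma). CLDN1 is at 2.39 at 16 hours and at -0.92 and -1.25 in the LPS 5 d and LPS + Beta-Ac groups, while 7 of the 9 genes have a point above 0 in the LPS 5 d panel and in the LPS + Beta-Ac panel.

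The second question was what remained after 5 days. At that time, 3 of the 9 genes were higher than in preterm controls and 1 was lower. CLDN4, OCLN and CGN rose 1.60-fold, 1.61-fold and 1.48-fold, and CLDN1 fell to 0.528 of the control level. Of all genes tested, 5.49% were higher and 9.24% were lower. The median log2 difference was 0.63 over the 9 genes and -0.0019 over all genes.

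OCLN measured 38.6, 37.0, 45.8 and 41.0 CPM in preterm controls and 60.3, 63.2 and 72.6 CPM after 5 days, with no overlap, and differed by 0.69 ± 0.18 on the log2 scale (SE, adjusted p = 0.0205 by limma). CLDN4 was 126, 93.5, 116 and 109 CPM in controls and 194, 198 and 143 CPM after 5 days. Its log2 difference was 0.68 ± 0.21 (SE, adjusted p = 0.043 by limma). CGN, which was below its controls at 16 hours, stood above its controls after 5 days, at 132, 134 and 105 CPM, with a log2 difference of 0.57 ± 0.16 (SE, adjusted p = 0.0267 by limma).

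CLDN1, which had risen at 16 hours, measured 2.79, 3.57 and 2.94 CPM after 5 days. All 3 values were below the lowest preterm control, and the log2 difference was -0.92 ± 0.29 (SE, adjusted p = 0.0458 by limma). The remaining 5 genes did not pass. CLDN3, CLDN7, CLDN18 and CDH1 had log2 differences of 0.78, 0.63, 0.80 and 0.63, with adjusted p-values of 0.064, 0.0509, 0.107 and 0.0647 by limma, and TJP1 had -0.31 (adjusted p = 0.0745 by limma). CLDN7 passed under library totals alone, median-of-ratios size factors, thinning and the fit of only these 2 groups (adjusted p = 0.0418, 0.0377, 0.0458 and 0.0314 by limma), and CLDN3 and CLDN7 each passed without preterm control 092 or LPS 5 d animal 242.

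These calls lay close to the threshold. The number of genes that passed was 1 without preterm control 101, 1 without preterm control 113, 2 without preterm control 209, 1 without LPS 5 d animal 239 and 0 without LPS 5 d animal 240, and it was 7 when only these 2 groups were fitted, where CLDN7, CDH1 and TJP1 came to pass. With 1 animal left out, CLDN1 lost its call in 6 of 7 fits (all but the one without preterm control 101), CLDN4 in 6 of 7 (all but the one without LPS 5 d animal 242), OCLN in 4 of 7 (without 092, 101, 240 or 242) and CGN in 4 of 7 (without 101, 113, 239 or 240). CLDN1 also lost it under median-of-ratios size factors, with no filter on low counts and under limma-voom (adjusted p = 0.0526, 0.0527 and 0.127 by limma). None of the 9 genes reached the 2-fold change that the study also required. The shares over all genes given for this comparison belong to the main fit, and none is given here for these alternatives. An unadjusted p below 0.05 by limma was found for 9 of 9, and no share over all genes is given here at that limit.

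The combined exposure addressed how a low dose of corticosteroid acts in the setting of inflammation. In the LPS + Beta-Ac group, 2 of the 9 genes were higher than in preterm controls and 2 were lower. CLDN3 and CLDN4 rose 1.94-fold and 1.61-fold, and CLDN1 and TJP1 fell to 0.421 and 0.718 of the control level. Of all genes tested, 7.11% were higher and 10.2% were lower, and the median log2 difference was 0.52 over the 9 genes against -0.01 over all genes.

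CLDN3 measured 45.9, 39.3 and 37.9 CPM with the combined treatment and 29.6, 16.8, 18.2 and 21.9 CPM in preterm controls. The groups were apart, and the log2 difference was 0.95 ± 0.27 (SE, adjusted p = 0.0223 by limma). CLDN4 stood at 187, 158 and 189 CPM, above every preterm control, with a log2 difference of 0.68 ± 0.21 (SE, adjusted p = 0.0362 by limma). CLDN1 was 2.56, 1.88 and 3.04 CPM, which is the lowest group mean of the 5 groups, and differed by -1.25 ± 0.29 (SE, adjusted p = 0.00826 by limma).

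TJP1 was 286, 268 and 303 CPM and fell by 0.48 ± 0.11 on the log2 scale (SE, adjusted p = 0.00692 by limma). OCLN, CLDN7, CGN and CDH1 had log2 differences of 0.52, 0.53, 0.47 and 0.53 that did not pass, and CLDN18 had 0.46 (interval -0.21 to 1.13). Single animals set some of these values: OCLN was 40.5 CPM in animal 249 against 72.2 and 67.2 CPM in the others, and CLDN18 was 45.0 CPM in animal 255 against 90.4 and 109 CPM. Without animal 249, OCLN and CDH1 passed, with log2 differences of 0.81 and 0.77 (adjusted p = 0.00568 and 0.0383 by limma), and CLDN1, CLDN3 and TJP1 did not (adjusted p = 0.0587, 0.0517 and 0.056 by limma). The CLDN4 call was lost in 5 of 7 fits that left out 1 animal (101, 113, 209, 248 or 255, adjusted p = 0.0611 to 0.114 by limma), and the CLDN3 call in 4 of 7 (101, 113, 248 or 249). CGN passed under median-of-ratios size factors (adjusted p = 0.0433 by limma), and CGN and CLDN7 passed when only these 2 groups were fitted (adjusted p = 0.0156 and 0.0254 by limma). Of the 9 genes, 2 passed without preterm control 101, 2 without preterm control 113 and 2 without LPS + Beta-Ac animal 248, and 1 when a 2-fold change was also required.

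Adding Beta-Ac to LPS made no detectable difference to these genes after 5 days. None of the 9 passed by limma or by limma-voom in the direct comparison of LPS + Beta-Ac with LPS 5 d, and 0 of 9 had an unadjusted p below 0.05 by limma. The table held few such genes in all, with 0.104% of the genes tested higher and 0% lower. With 3 animals a group the intervals were wide: the log2 difference was 0.01 for CLDN4 (interval -0.48 to 0.49), -0.34 for CLDN18 (-1.06 to 0.38) and -0.32 for CLDN1 (-0.99 to 0.34). TJP1 had the narrowest interval, -0.42 to 0.08 around -0.17.

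The normal advance of gestation was measured in 2 term animals. None of the 9 genes passed against preterm controls by limma or limma-voom. Of all genes tested 1.42% were higher and 2.57% were lower at the adjusted threshold by limma. An unadjusted p below 0.05 by limma was found for 3 of 9, and no share over all genes is given here at that limit. Scaling by library totals alone moved the share of passing genes that were higher from 35.6% to 51.1%. CLDN18 was 124 and 132 CPM at term, above the highest preterm control at 76.4 CPM, with a log2 difference of 1.20 ± 0.36 (SE, adjusted p = 0.0765 by limma). It passed without preterm control 209 (log2 difference 1.35, adjusted p = 0.0436 by limma). CLDN1 was 3.90 and 2.07 CPM, below every preterm control (log2 difference -1.04 ± 0.33, adjusted p = 0.0953 by limma), and TJP1 was 295 and 328 CPM, also below (-0.35 ± 0.12, adjusted p = 0.124 by limma). CLDN3, CLDN4, CLDN7, OCLN, CGN and CDH1 had log2 differences of 0.05, 0.11, -0.16, 0.26, 0.14 and 0.26, and the widest of these intervals, for CLDN3, ran from -0.59 to 0.70.

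The 2 LPS groups were also compared with each other, which uses none of the preterm controls. At 16 hours, 1 gene was higher than at 5 days and 5 were lower. CLDN1 was 9.94-fold higher at 16 hours, whereas CLDN18, CGN, CLDN3, CLDN4 and CDH1 stood at 0.240, 0.357, 0.395, 0.531 and 0.571 of their 5-day level. Of all genes tested, 19.4% were higher and 15.6% were lower at 16 hours, and the median log2 difference was -0.81 over the 9 genes against -0.03 over all genes. Scaling by library totals alone moved the all-gene median by -0.19 and the share of passing genes that were higher from 55.4% to 35.4%.

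CLDN1 differed by 3.31 ± 0.29 on the log2 scale (SE, n = 4 and 3, adjusted p = 6.99e-07 by limma). CLDN18 was 17.1 to 30.8 CPM at 16 hours and 68.1, 124 and 107 CPM at 5 days, a log2 difference of -2.06 ± 0.31 (SE, adjusted p = 1.53e-04 by limma). CGN differed by -1.49 ± 0.16 (SE, adjusted p = 5.26e-06 by limma). CLDN3, at 13.9, 21.7, 13.2 and 10.5 CPM at 16 hours and 38.4, 48.04 and 26.0 CPM at 5 days, differed by -1.34 ± 0.27 (SE, adjusted p = 0.00117 by limma). CLDN4 and CDH1 differed by -0.91 ± 0.21 and -0.81 ± 0.22 (SE, adjusted p = 0.00348 and 0.00912 by limma). Without overlap between the times, 1 of the 9 genes was higher at 16 hours and 7 were lower, OCLN and TJP1 besides the 6 that passed. No share over all genes is given here for overlap. The 6 calls kept their side of the threshold in 14 of 14 alternatives. CLDN1, CLDN18, CGN and CLDN3 were the 4 that also exceeded a 2-fold change.

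CLDN7 had nearly the same level at both times, 44.9 ± 10.6 CPM at 16 hours (SD, n = 4) and 40.3 ± 8.44 CPM at 5 days (SD, n = 3), with a log2 difference of 0.15 (interval -0.28 to 0.59) that turned to -0.04 under library totals alone and to -0.03 without LPS 5 d animal 242. OCLN and TJP1 were lower at 16 hours without passing, at -0.49 and -0.28 (adjusted p = 0.0518 and 0.0604 by limma). Both passed under library totals alone, at -0.68 and -0.47 (adjusted p = 0.0114 and 0.00757 by limma). OCLN also passed without LPS 16 h animal 026 or 035, and TJP1 without 026 or 038 and after thinning.

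The order of the group means therefore differed between the genes. For CLDN1 it ran from LPS 16 h through preterm control to LPS 5 d, term control and LPS + Beta-Ac, and the last 3 overlapped one another. For CLDN18 the order was term control, LPS 5 d, LPS + Beta-Ac, preterm control and LPS 16 h, and only LPS 16 h stood apart from its neighbour. CLDN3, CLDN4, OCLN, CGN and CDH1 each had the LPS 5 d and LPS + Beta-Ac groups in the first 2 places and term control in the third. The LPS 5 d and LPS + Beta-Ac values overlapped in each of these 5 genes, and the step to term control was free of overlap for CLDN4 and CGN only. CLDN7 had the 3 LPS-exposed groups above both control groups. TJP1 alone was highest in the preterm controls, at 398 ± 25.2 CPM (SD, n = 4), apart from the next group.

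The cell types in the tissue are given here by the summed CPM of marker lists. All animals expressed alveolar markers, and the surfactant gene SFTPC ranged from 1797 to 7546 CPM. EPCAM, a pan-epithelial membrane protein, was 159 ± 25.8 CPM in preterm controls (SD, n = 4) and 129 ± 33.4 CPM at 16 hours (SD, n = 4), and its log2 difference from preterm controls was -0.32, -0.19, 0.01 and 0.01 in the LPS 16 h, LPS 5 d, LPS + Beta-Ac and term groups, with no difference past the threshold (adjusted p = 0.144, 0.529, 0.9747 and 0.987 by limma).

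The summed level of 9 general epithelial markers, of which CDH1 is 1, was 809 to 1042 CPM in preterm controls, 1005 to 1509 CPM at 16 hours, 1159 to 1316 CPM at 5 days and 1045 to 1298 CPM with LPS + Beta-Ac. At 16 hours the 1509 CPM came from animal 029, and the other 3 animals lay at 1005 to 1038 CPM, within the control range. The sum joined opposite changes: of the 9 markers, 4 were higher, 1 was lower and 4 did not pass at 16 hours. Over all genes tested, 18.7% were higher and 19.6% lower. The 8 alveolar type 1 markers summed to 3931 to 4524 CPM in preterm controls and to 1450 to 1712 CPM at 16 hours, where 5 of 8 were lower and 3 did not pass, beside the lower CLDN18. They summed to 3359 to 4367 CPM at 5 days and to 2532 to 3890 CPM with LPS + Beta-Ac, where every animal was below every preterm control. CLDN18 had log2 differences of 0.80 and 0.46 in these groups, and passed in neither. Alveolar type 2 markers were 6380 to 10083 CPM in preterm controls, 9179 to 17351 CPM at 16 hours, 13626 to 21227 CPM at 5 days, 15661 to 21357 CPM with LPS + Beta-Ac and 14442 to 15887 CPM at term. The groups apart from the controls were the LPS 5 d, LPS + Beta-Ac and term animals, beside the higher CLDN4 of the LPS 5 d and LPS + Beta-Ac groups. At term CLDN4 and CLDN7 had log2 differences of 0.11 and -0.16 that did not pass. Mesenchymal markers were 12242 to 20545 CPM in preterm controls, and 8566 to 12021, 7886 to 13957, 7543 to 10534 and 7580 to 7727 CPM in the LPS 16 h, LPS 5 d, LPS + Beta-Ac and term groups, which overlapped the controls at 5 days of LPS alone and in no other group. Myeloid markers were 150 to 262 CPM in preterm controls and 2235 to 2857 CPM at 16 hours, where 6 of 8 were higher. They were 275 to 284 CPM at 5 days, 446 to 758 CPM with LPS + Beta-Ac and 319 to 427 CPM at term, all above the controls. Endothelial markers were 2362 to 2868 CPM in preterm controls. Below every control, they were 1924 to 2338 CPM at 16 hours and 1409 to 2027 CPM at term. They overlapped the controls at 5 days (1649 to 2449 CPM) and with LPS + Beta-Ac (1931 to 2377 CPM). Airway markers ranged from 36.4 to 545 CPM over all animals. The mesenchymal and endothelial sums had their highest group mean in the preterm controls, as TJP1 did. The part of these cell types in the junction gene differences was not tested.

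**Figure D3:**
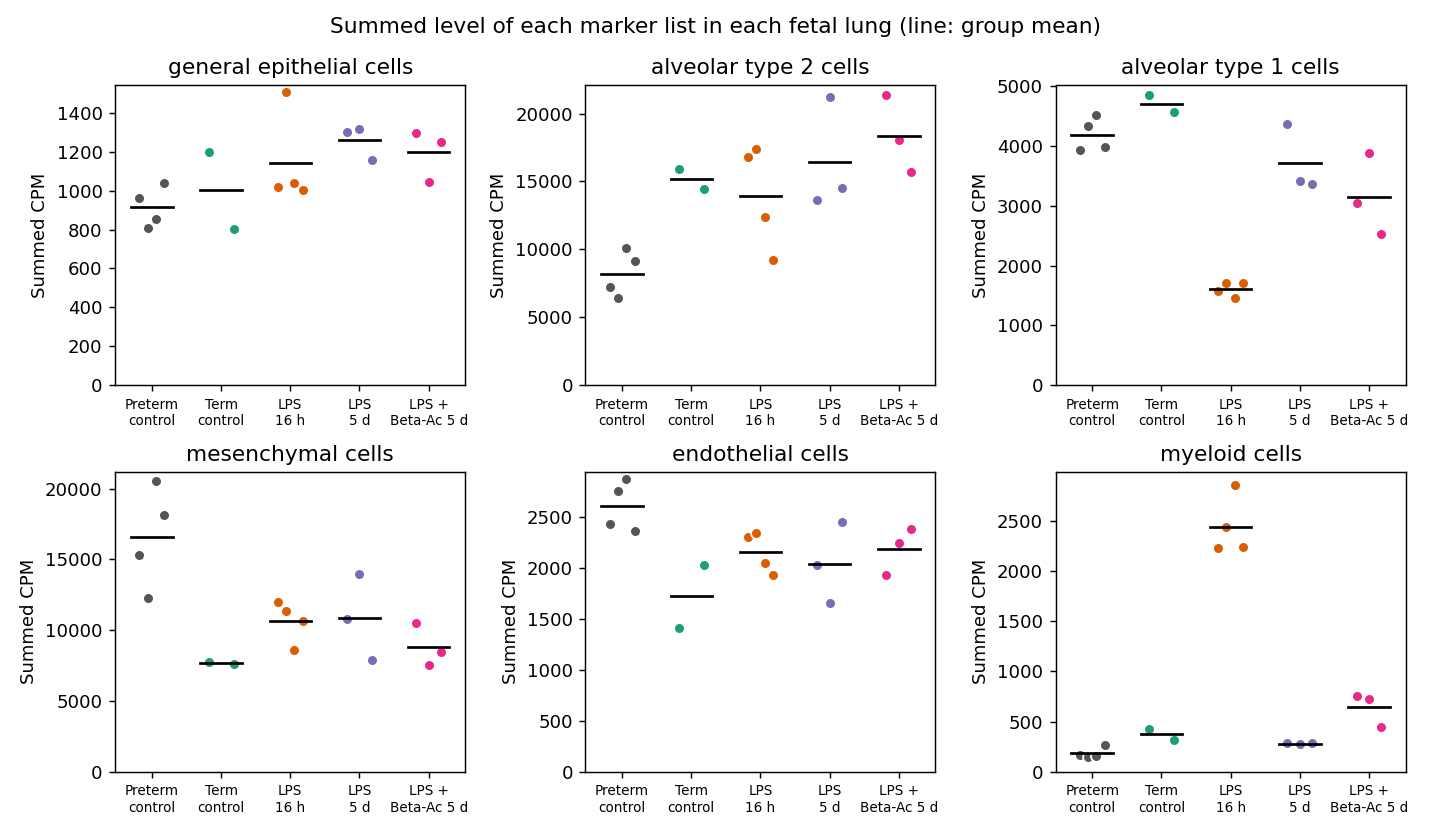
Summed TMM-scaled CPM of 6 marker lists in each animal, 1 panel per cell type, with the 5 groups on the horizontal axis and lines for group means. Alveolar type 1 markers lie at 1450 to 1712 CPM in the LPS 16 h animals, below every other animal, and myeloid markers at 2235 to 2857 CPM, above every other animal.

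Each gene was also set against EPCAM in the same animal, with no test. The log2 ratio of CLDN1 to EPCAM was -4.71 ± 0.11 in preterm controls (SD, n = 4), -2.01 ± 0.71 at 16 hours (SD, n = 4) and -5.44 ± 0.22 at 5 days (SD, n = 3). That of CLDN18 was -1.50 ± 0.25, -2.44 ± 0.63 and -0.50 ± 0.43 in the same groups. For CGN the ratio was -0.92 ± 0.30, -1.52 ± 0.64 and -0.16 ± 0.29. TJP1, which passed at 16 hours on CPM, had ratios of 1.34 ± 0.25 in preterm controls and 1.08 ± 0.51 at 16 hours, a difference of -0.27 against -0.58 on CPM and within the spread of the exposed animals. At 16 hours minus preterm controls, the ratio differed by 1.10 for CLDN7, 0.52 for OCLN and -0.24 for CLDN3, and by 0.08 for CLDN4 and 0.14 for CDH1, whose CPM differences were below 0. EPCAM itself ranged from 97.0 to 176 CPM among the LPS 16 h animals.

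Among the members themselves, CLDN3 and CLDN4 were the most alike over the 16 animals, with a Pearson correlation of log2 CPM of 0.95 and of 0.87 after each group's mean was removed. These 2 genes are adjacent protein-coding genes in the RefSeq annotation of the rhesus assembly T2T-MMU8v2.0. That build is another than the one the counts were made on, and it was used for gene order and the overlap of spans only. CLDN1 and CGN were the most opposed pair, at -0.91, but at -0.11 once group means were removed. CLDN1 and CDH1 went from -0.53 to 0.76 by the same step. All values share libraries and group differences, and they are descriptions over 16 animals.

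Over the genes with a mean of at least 4 log2 CPM, the closest to CLDN7 was ELP5 (Pearson 0.95, and 0.93 without group means), its neighbour in that annotation. ELP5 encodes a subunit of the Elongator complex. It was higher at 16 hours than in preterm controls, as CLDN7 was, by 0.48 on the log2 scale (adjusted p = 0.0232 by limma). How reads in the region were assigned by strand is not stated, so reads of one gene counted to the other cannot be told apart from a like pattern, and the CLDN7 value carries that limit. In that annotation the spans of CLDN7 and ELP5 do not overlap. CLDN7 does overlap the span of SLC2A4 there, with a correlation of 0.23.

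Closest to CLDN1 were PLAA, DERL1 and GORASP2 (0.97 each), which act in ubiquitin-dependent protein turnover, in the removal of misfolded protein from the endoplasmic reticulum and in Golgi structure. Without group means these correlations were 0.55, 0.73 and 0.44. Among all genes named as most alike to a member, that value ran from 0.44 for GORASP2 to 0.93 for ELP5. CLDN4 was closest to CRB3 (0.96), an apical polarity protein, followed by ABHD14B (0.96) and CLDN3. CLDN3 was closest to PPP1R35 (0.98), then to CLDN4 and RILPL1 (0.95 each). CLDN18 was closest to CUX1 (0.96), EPB41L5 (0.96) and RTKN2 (0.94), the last of which is also among the type 1 cell markers. CGN was closest to PTPRF (0.97), MYRF (0.96) and ARHGEF17 (0.96), and TJP1 to VEZF1 (0.96), BBS10 (0.96) and PLEKHA1 (0.94). For OCLN the first was IRAG2 (0.91), then LRIG1 (0.87) and DNMBP (0.86), and CDH1 had the loosest matches, PTPN1 (0.84), MYO5C (0.83) and SLC22A23 (0.82). In the annotation OCLN lies next to its relative MARVELD2 (0.63) and CDH1 next to CDH3 (-0.04).

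**Figure D4:**
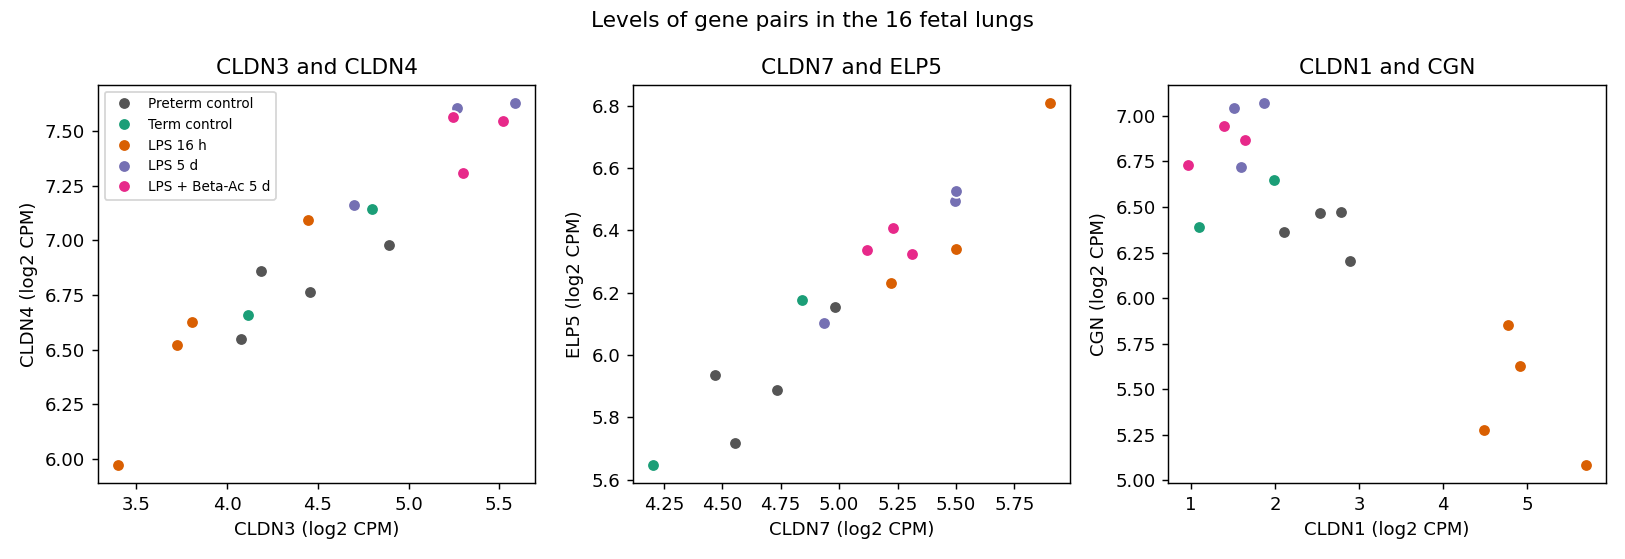
Log2 CPM of 3 gene pairs in the 16 animals, coloured by group. CLDN3 and CLDN4 run together (Pearson 0.95), as do CLDN7 and ELP5 (0.95), and CLDN1 and CGN run in opposite directions (-0.91) with the 4 LPS 16 h animals apart from the rest.

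The rest of the junction was read from lists of genes chosen by their role. Of 27 other tight junction membrane, scaffold and polarity genes, 26 were tested. At 16 hours, 8 of 26 were lower than in preterm controls and 1 was higher, with a median log2 difference of -0.11. The shares over all genes tested were 19.6% lower and 18.7% higher. The polarity gene PARD6B fell by 1.51 ± 0.17 (SE, adjusted p = 6.40e-06 by limma), and its partner kinase PRKCZ fell by 0.75. ILDR1, a protein of tricellular contacts, fell by 0.72. The polarity scaffold PALS1 fell by 0.65, with overlap between the groups. LSR, also of tricellular contacts, was the gene that rose, by 0.60 (adjusted p = 0.00128 by limma). With 1 animal left out, 6 to 8 were lower, and 2 were higher without LPS 16 h animal 029.

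At 5 days, 9 of 26 were higher and 1 was lower, with a median of 0.47. The shares over all genes tested were 5.49% higher and 9.24% lower. TJP3 (ZO-3), PATJ, MAGI3 and CRB3, which are junction or polarity scaffolds and an apical membrane protein, rose by 1.03, 0.90, 0.85 and 0.78, and JAM3, a junctional adhesion molecule also made by endothelial and mesenchymal cells, fell by 0.58. The number higher was 5 without preterm control 101 or LPS 5 d animal 239 and 4 without LPS 5 d animal 240 or 242, and JAM3 did not pass without animal 240. With LPS + Beta-Ac, 6 of 26 were higher and 2 lower (median 0.34), beside 7.11% and 10.2% of all genes tested. CRB3, LLGL2, MARVELD3 and MAGI3 led, at 0.86, 0.72, 0.72 and 0.66, while JAM2 and JAM3 fell by 0.77 and 0.57. The number higher was 2 without preterm control 113, and 3 without preterm control 101 or without any 1 of the 3 LPS + Beta-Ac animals, and the number lower was 1 without animal 248 or 249.

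MAGI3 was the only one of the 26 to pass at term, at 203 and 218 CPM against 97.5 to 127 CPM in preterm controls (log2 difference 0.90, adjusted p = 0.0106 by limma), and it did not pass without either term animal. It measured 61.1 to 96.7 CPM at 16 hours, below the controls, and 195 to 210.2 CPM at 5 days, above them. At term 1.42% of all genes tested were higher and 2.57% lower. Between the 2 LPS groups, 13 of 26 were lower at 16 hours and 1 was higher (median -0.58, and 12 to 14 lower with 1 animal left out). The shares over all genes tested were 15.6% lower and 19.4% higher. PRKCZ, MAGI3, PARD6B and LLGL2 had the largest differences, from -1.39 to -1.33, and JAM3 differed by 0.62.

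Of 18 other claudins, 16 had a row and 11 were tested. At 16 hours 3 of 11 were lower and 1 higher than in preterm controls, with a median of -0.26, beside 19.6% lower and 18.7% higher of all genes tested. CLDN23 fell by 1.17, CLDN11 by 0.83 and CLDN22 by 0.56, and CLDN10 was the higher one, at counts too low for a fold. CLDND1, a claudin-like membrane protein, fell by 0.61 at 5 days and by 0.64 with LPS + Beta-Ac, the single gene to pass in each (medians -0.17 and -0.32), or 1 of 2 at 5 days without preterm control 101. The shares of all genes tested that were lower in these comparisons were 9.24% and 10.2%. At term the median was -0.10. At 16 hours against 5 days, where 19.4% of all genes were higher and 15.6% lower, 2 of 11 were higher (CLDND1 by 0.47, and CLDN2, at low counts) and CLDN23 and CLDN15 were lower, by 1.30 and 0.40. That comparison had a median of -0.09, and with 1 animal left out as few as 1 was higher, and 0 were lower by limma without LPS 16 h animal 038 or LPS 5 d animal 240. CLDN5, which is also in the endothelial list, passed in no comparison.

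In the adherens junction, 5 of 12 genes were lower at 16 hours and 7 did not pass, with a median of -0.25. JUP (plakoglobin, which desmosomes share), NECTIN4, PLEKHA7 and VCL fell by 0.97, 0.88, 0.51 and 0.38, and the number lower was 2 without LPS 16 h animal 029 and 3 without preterm control 092. At 5 days NECTIN4 and PLEKHA7 rose by 1.06 and 0.73 and VCL (vinculin, a link to actin found in many cell types) fell by 0.47, with a median of 0.07. Without LPS 5 d animal 240 none of the 3 passed. The number higher was 1 without preterm control 092 or 101 or LPS 5 d animal 239, and VCL did not pass without preterm control 092, 101 or 113 or LPS 5 d animal 242. With LPS + Beta-Ac NECTIN4 rose by 1.05 while VCL and CTNNB1 fell by 0.52 and 0.40, with a median of -0.05, and none of the 3 passed without LPS + Beta-Ac animal 249. The number higher was 2 without preterm control 209, and the number lower was 1 without preterm control 101 or 113 or LPS + Beta-Ac animal 255. NECTIN4, a cell adhesion protein of epithelia, measured 9.80, 9.71, 7.45 and 9.46 CPM in preterm controls, 5.29, 8.54, 4.06 and 3.05 CPM at 16 hours and 20.3, 19.95 and 16.9 CPM at 5 days. The LPS 16 h group overlapped its controls in animal 029, and the LPS 5 d group lay above them. Against 5 days, 3 of 12 were lower at 16 hours (NECTIN4 by 1.95, PLEKHA7 by 1.24 and JUP by 1.05). The medians were -0.13 in that comparison and -0.32 at term. Over all genes tested, 18.7% were higher and 19.6% lower at 16 hours than in preterm controls. The shares were 5.49% and 9.24% at 5 days and 7.11% and 10.2% with LPS + Beta-Ac. For 16 hours against 5 days they were 19.4% and 15.6%.

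Desmosomes bind keratin filaments of neighbouring cells, and 10 of their 11 listed genes were tested. At 16 hours 4 of 10 were lower and 1 higher, with a median of -0.52. EVPL (envoplakin) measured 14.8, 16.3, 13.3 and 18.6 CPM in preterm controls and 4.12, 6.67, 3.38 and 2.56 CPM at 16 hours, a decrease by 1.97 ± 0.28 on the log2 scale (SE, adjusted p = 5.90e-05 by limma). PERP, DSP and PPL fell by 0.94, 0.73 and 0.58, and PKP2 rose by 1.09. At 5 days DSP, PKP2 and PPL rose by 0.80, 0.85 and 0.61, and with LPS + Beta-Ac DSP, PKP2 and PPL rose by 0.72, 0.65 and 0.60 (medians 0.37 and 0.39). The first count was 1 without preterm control 092, 101 or 113 or LPS 5 d animal 239, and 0 without LPS 5 d animal 240. The second was 1 without preterm control 113 or LPS + Beta-Ac animal 249, and 0 without preterm control 092 or 101 or LPS + Beta-Ac animal 248 or 255. Against 5 days, 6 of 10 were lower at 16 hours (median -0.63), with EVPL at -2.52 and DSP at -1.53, and the median at term was 0.06. DSP overlapped its preterm controls at 5 days and with LPS + Beta-Ac, and PPL did at 5 days. Over all genes tested, 18.7% were higher and 19.6% lower at 16 hours than in preterm controls. The shares were 5.49% and 9.24% at 5 days and 7.11% and 10.2% with LPS + Beta-Ac. For 16 hours against 5 days they were 19.4% and 15.6%.

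**Figure D5:**
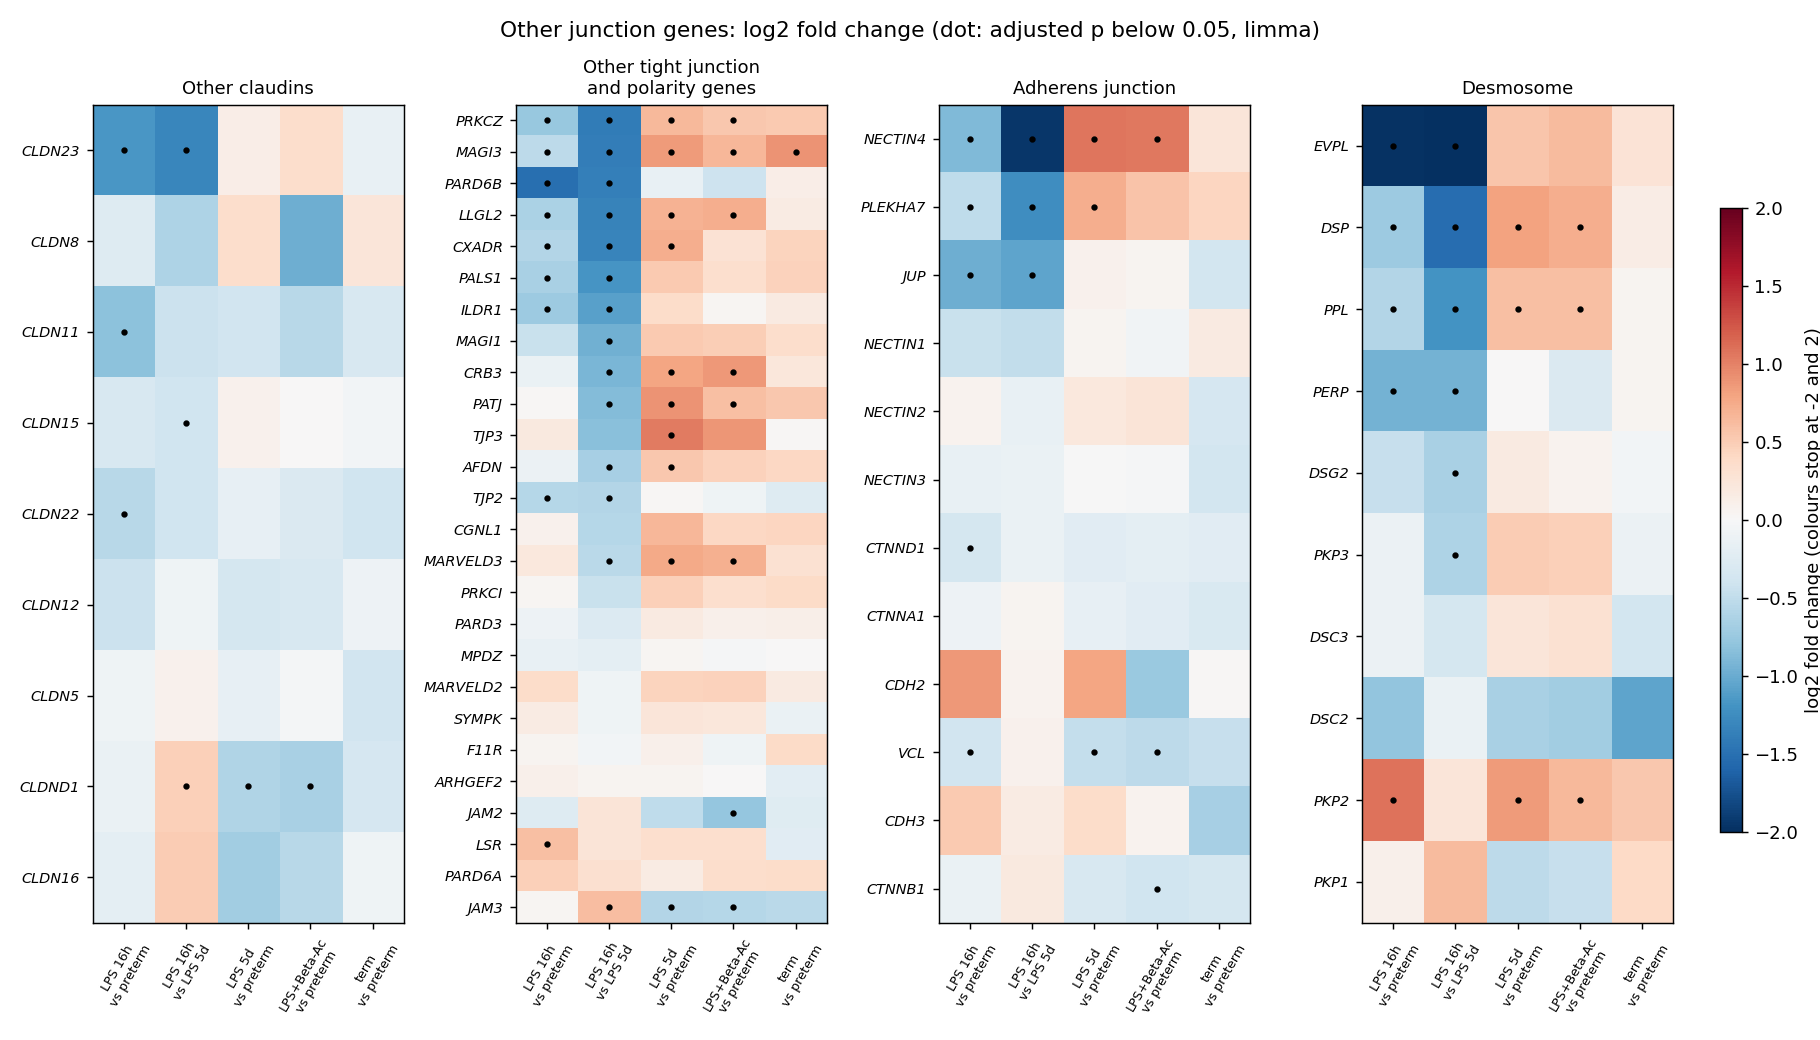
Rows are the other tested junction genes in 4 lists, columns are 5 comparisons, and colour is the log2 fold change, cut at -2 and 2. Dots mark an adjusted p below 0.05 (limma). Of the 26 other tight junction and polarity genes, 13 carry a dot for lower at 16 hours than at 5 days and 1 for higher. Over all genes tested, 15.6% were lower and 19.4% higher in that comparison.

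Transcription and splicing factors of epithelial cells, with ELF3 and ESRP1 also among the epithelial markers above, were mixed at 16 hours: 3 of 9 were higher and 2 lower (median -0.05). EHF, ELF3 and OVOL1 rose by 2.26, 1.28 and 1.02, while the splicing factor ESRP1 and the repressor OVOL2 fell by 0.95 and 0.81. At 5 days ELF3, GRHL2 and ESRP2 rose by 1.36, 0.82 and 0.70. With LPS + Beta-Ac EHF, ELF3 and ESRP2 rose by 1.54, 1.00 and 0.56, and the other 6 did not pass in either (medians 0.56 and 0.49). EHF overlapped its preterm controls there, at 33.5 to 51.9 CPM against 6.53 to 50.3 CPM, and OVOL1 overlapped them at 16 hours. The LPS + Beta-Ac count was 1 without preterm control 113 or without any 1 of its own 3 animals, and 5 without preterm control 209. OVOL2, ESRP2 and ESRP1 were lower at 16 hours than at 5 days, by 1.18, 0.75 and 0.66 (median -0.28), and the median at term was 0.20. Over all genes tested, 18.7% were higher and 19.6% lower at 16 hours than in preterm controls. The shares were 5.49% and 9.24% at 5 days and 7.11% and 10.2% with LPS + Beta-Ac. For 16 hours against 5 days they were 19.4% and 15.6%.

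Of 4 tested repressors of CDH1 transcription, SNAI1 and SNAI2 passed. At 16 hours 18.7% of all genes tested were higher than in preterm controls and 19.6% lower. Higher and lower shares were 5.49% and 9.24% at 5 days, 7.11% and 10.2% with LPS + Beta-Ac and 1.42% and 2.57% at term. They were 19.4% and 15.6% for 16 hours against 5 days. SNAI1 was 6.14, 3.14, 3.72 and 5.71 CPM in preterm controls and 6.64, 13.8, 9.70 and 9.92 CPM at 16 hours, a log2 difference of 1.09 (adjusted p = 0.0137 by limma), while CDH1 differed by -0.17 without passing. SNAI1 was also higher at 16 hours than at 5 days, by 1.30 (adjusted p = 0.00831 by limma). Those groups overlapped, and SNAI1 did not pass without LPS 5 d animal 242. SNAI2, a gene of mesenchymal cells, was 96.0, 68.7, 87.9 and 68.0 CPM in preterm controls and fell by 0.65 at 16 hours, 0.95 at 5 days, 0.89 with LPS + Beta-Ac and 0.61 at term. The term call (adjusted p = 0.0467 by limma) was lost when preterm control 092, 101 or 113, or either term animal, was left out. ZEB1 and ZEB2 passed in no comparison, and the medians of the 4 genes were -0.40, -0.51, -0.43 and -0.47 in these comparisons and 0.26 for 16 hours against 5 days. In the comparison of LPS + Beta-Ac with LPS 5 d, 0 of the 72 genes tested in these 6 lists passed by limma or limma-voom, and 2 had an unadjusted p below 0.05 by limma. That comparison had 0.104% of all genes tested higher and 0% lower at the adjusted threshold. At term 0 genes of the other claudin, adherens, desmosome and epithelial regulator lists passed by limma or limma-voom, and 1, 4, 1 and 1 had an unadjusted p below 0.05 by limma. No share over all genes is given here at that unadjusted limit.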

How the data were processed

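Paired-end 75 bp reads of poly(A)-selected lung RNA were, by the authors, assigned with kallisto to the rhesus build Mmul_10 and summarized per gene with tximport. The authors tested them with DESeq2 at a fold of at least 2 and q below 0.05. Versions, annotation release and strand setting are not stated. The deposited values were whole-number counts per Ensembl gene, 1 column per animal, which other scalings can shift and which carry no length correction. Of 22515 identifiers, 17256 had a symbol in the gene name table.

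From these counts, log2 CPM was computed with TMM factors and a prior count of 2. The filter kept genes that reached 0.371 CPM in 2 or more animals and a total of 15 counts. Differences were tested in R 4.3.3 with limma 3.58.1 (trend, robust), 1 mean per group, all 16 animals, two-sided, Benjamini-Hochberg over 19192 genes. This took the place of a count model, because the format of the table kept its columns from being recorded as counts. The script was tested on simulated data. Replicates of 1 group differed by more than counting noise (chi-square per degree of freedom 31.1 to 166). All members are named, up to 4 passing genes per list, comparison and direction, and the 3 genes most alike to each member. Genes with a mean under 4 counts in a compared group got no fold. The members and lists were chosen with earlier results of these data known. Sequences were not used here, and coordinates only for gene order and the overlap of spans in the RefSeq annotation. Alternatives covered scaling, filter, prior count, limma-voom, the groups fitted, a 2-fold limit, thinning (chosen after seeing the depths) and leaving out each animal.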

Additional observations from a re-analysis of the deposited data

Results flagged for a closer look

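For 6 of the 9 genes, the LPS 16 h and LPS 5 d groups differed past the threshold in their direct comparison, in which the preterm controls cancel. Over all genes tested, 19.4% were higher and 15.6% lower at 16 hours. The 2 groups also differed in library depth and in gestation at treatment, and no control group matched either interval. Whether the effect of LPS itself differed was not tested apart from these. The log2 difference, 16 hours minus 5 days, was 3.31 for CLDN1, -1.34 for CLDN3, -0.91 for CLDN4, -2.06 for CLDN18, -1.49 for CGN and -0.81 for CDH1. For CLDN1 and CGN the difference from preterm controls passed in opposite directions at the 2 times. The 5-day calls of that pair were near the threshold: with 1 animal left out, CLDN1 lost its call in 6 of 7 fits and CGN in 4 of 7. The 16-hour libraries were the deepest, and thinning all libraries to the smallest total, an alternative chosen after seeing the data, left 7 genes past the threshold. The shares over all genes given above belong to the libraries before thinning. In 18 groups of 4 animals, made of the 9 genes in the preterm control and LPS 16 h groups, 0 had an animal farther out than Dixon's 95% limit, which chance passes in about 1 group in 20.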

How the results depend on the processing

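Each of the 54 member differences was recomputed under the alternatives, 747 values in all: 670 kept their direction and side of the threshold, 34 no longer passed, 25 came to pass and 18 changed sign, none of these 18 among differences that had passed. Requiring a 2-fold change left 2 genes at 16 hours, 0 at 5 days and 1 with LPS + Beta-Ac against preterm controls, and fitting only the 2 groups gave 7 at 5 days. No share over all genes is given here for these alternatives. With 1 animal left out, 0 to 4 genes passed at 5 days, 2 to 4 with LPS + Beta-Ac and 0 to 1 at term. Under library totals alone, OCLN at 16 hours against preterm controls became -0.0042 and CLDN7 at 16 hours against 5 days became -0.037. With 1 animal left out, these log2 differences crossed 0. Term against preterm: CLDN3 -0.29 to 0.39, CLDN4 -0.13 to 0.35, CLDN7 -0.48 to 0.15 and CDH1 -0.044 to 0.57. LPS + Beta-Ac against LPS 5 d: CLDN3 -0.070 to 0.37, CLDN4 -0.14 to 0.089, CLDN7 -0.28 to 0.0038, CLDN18 -0.60 to 0.040, OCLN -0.32 to 0.093 and CDH1 -0.33 to 0.11. LPS 16 h against LPS 5 d: CLDN7 -0.034 to 0.25. The cause was not tested. No paired analysis was possible because the groups share no animal number. Of the counts over the 6 lists, 943 stayed within 1.5 times and 125 did not. Every member had at least 52 counts in every library, and groups held 2 to 4 animals. Beta-Ac alone was not analysed here.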
